A study of Mus musculus with 5 samples.

Results

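The locus described here is a stretch of mouse chromosome 13, from 63300001 to 64300000 on build mm9, defined as the stretch that holds Fancc and Ptch1, with 500 kb on either side. It was chosen from measured values: the core stood among the strongest autosomal moves toward compartment A in Late against Basal neurons, with the Early value known as well. Its members are 20 bins of 50 kb in the core, 10 in the flank before it (62800001 to 63300000) and 10 in the flank after it (64300001 to 64800000), 40 of the 47652 bins analysed in all. Each of the 40 bins had a value in all 5 libraries. Because the locus was selected on these values, its Late and Early differences from Basal are a description and are not offered as evidence of change.

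Hi-C, which ligates and sequences pieces of DNA that lie near each other in the nucleus, had been made from sorted nuclei of the mouse hippocampus labelled with antibodies to the neuronal nuclear protein NeuN and to GFP. The libraries fall by their titles into Basal (2), Early (1) and Late (2), and each group used 100000 nuclei from 2 animals. All groups carry both transgenes of the strain, ArcCreERT2, in which the immediate early gene Arc drives a tamoxifen-dependent Cre, and R26R-STOP-floxed-eYFP, the yellow fluorescent reporter it switches on, and the genotype label +/+. They also share the treatment label of foot shock without recall and tissue taken on day 0. The protocol gives one dose of 4-Hydroxytamoxifen before contextual fear conditioning, in mice kept in the dark beforehand, with tissue taken 1.5 to 2 h or 5 days later, so the meaning of the 3 group names in hours or days is not fixed by the labels. The age and sex of the mice are not given in the labels. The gate in which each group's nuclei were collected is not stated either. PC1 holds no expression values, so the neuronal label could not be checked against marker genes. The design text names 2 replicates; of Early, 1 library is analysed here.

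Each value is PC1, the first principal component of a library's contact matrix. It sorts the genome into compartment A (positive by the usual convention: open, gene-rich, active chromatin, mostly in the nuclear interior) and compartment B (negative: compact, gene-poor chromatin, often at the nuclear lamina). On chromosome 13 its SD was near 1 in every library. PC1 ranks bins within a chromosome rather than measuring an amount of chromatin opening. Ptch1 encodes Patched, the membrane receptor of Hedgehog ligands. Without ligand, Patched holds back the transducer Smoothened, and with ligand the Gli transcription factors are active and Ptch1 itself is among their targets. In the adult hippocampus the pathway is best known from the neural stem cells of the dentate gyrus. Fancc encodes a subunit of the Fanconi anaemia core complex, which ubiquitinates its substrates at DNA interstrand crosslinks so that the lesion can be repaired.

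In the RefSeq gene order, Fancc and Ptch1 are direct neighbours. The microRNA genes Mir23b, Mir27b, Mir3074-1 and Mir24-1 come just before Fancc, after the lncRNA genes Gm30409 and Gm16907. After Ptch1 come the lncRNA genes LOC102632415, Gm30709 and 1700024I08Rik, then Ercc6l2, which encodes a helicase-like protein of the SNF2 family, and the lncRNA genes Gm46423 and Gm30950. That annotation is of GRCm38 and the bins are of mm9, so no gene could be put into a single bin. The definition of the locus gives a single approximate mm9 position for both, in the bin that starts at 63600001. On GRCm38 their starts lie further apart than 1 bin of 50 kb, so no single bin would hold both starts at that spacing.

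Both genes are read from the minus strand, and both promoters matched in RefSeq (GRCm38.p6). They are shown because they are the regulatory starts of the genes for which the locus is named. Each is the 250 bases before a RefSeq start on chromosome 13, 5′ to 3′ on the gene's strand, with CpG dinucleotides in capitals; positions are left out because the bins are on another build.
Fancc: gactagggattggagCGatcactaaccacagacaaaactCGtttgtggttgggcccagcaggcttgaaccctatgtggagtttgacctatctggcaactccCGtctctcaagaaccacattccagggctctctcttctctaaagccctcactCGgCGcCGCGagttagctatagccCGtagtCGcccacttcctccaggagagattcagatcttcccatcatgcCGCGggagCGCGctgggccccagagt
Ptch1: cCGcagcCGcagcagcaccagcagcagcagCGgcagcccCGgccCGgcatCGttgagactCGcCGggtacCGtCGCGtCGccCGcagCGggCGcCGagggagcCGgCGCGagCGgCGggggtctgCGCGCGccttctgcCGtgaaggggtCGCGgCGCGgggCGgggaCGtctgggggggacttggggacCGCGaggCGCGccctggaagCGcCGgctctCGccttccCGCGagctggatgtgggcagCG
The Ptch1 promoter held 41 CpG dinucleotides and 78.4% G and C, and the Fancc promoter 13 and 56.4%, against medians of 6 and 52.4% over 32851 promoter windows of the same length. Of those windows, 98.9% held fewer CpG dinucleotides than that of Ptch1, and 68.5% fewer than that of Fancc. A GC-box (GGGCGG, both strands searched) was present in the Ptch1 window, 91 to 86 bases before the start, and in 32.7% of all windows. The Fancc window held no match to it. Neither window held the GLI letters GACCACCCA (0.225% of windows), the EGR letters GCGGGGGCG (2.57%), the E-box CACGTG (6.02%), the CRE TGACGTCA (1.55%) or TATAAA (12.4%), on either strand. These are letter matches in one window and say nothing of binding.

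In Basal neurons the locus was a patchwork. Mean PC1 over the 20 core bins was -0.08 in Basal replicate 1 and -0.11 in Basal replicate 2, 0.78 in the Early library, and 0.70 and 0.94 in Late replicates 1 and 2. The Early library and both Late libraries lay on the A side and well above both Basal libraries, which lay just on the B side of 0. Late averaged 0.82 ± 0.17, against -0.09 ± 0.024 in Basal (SD, n = 2 each), a difference of 0.91. Early, with 1 library, differed from Basal by 0.87. Over all 47652 bins the median difference was -0.01 for Late minus Basal, with 5th and 95th percentiles of -0.56 and 0.59, and 0.0008 for Early minus Basal, with percentiles of -0.74 and 0.74.

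**Figure D1:**
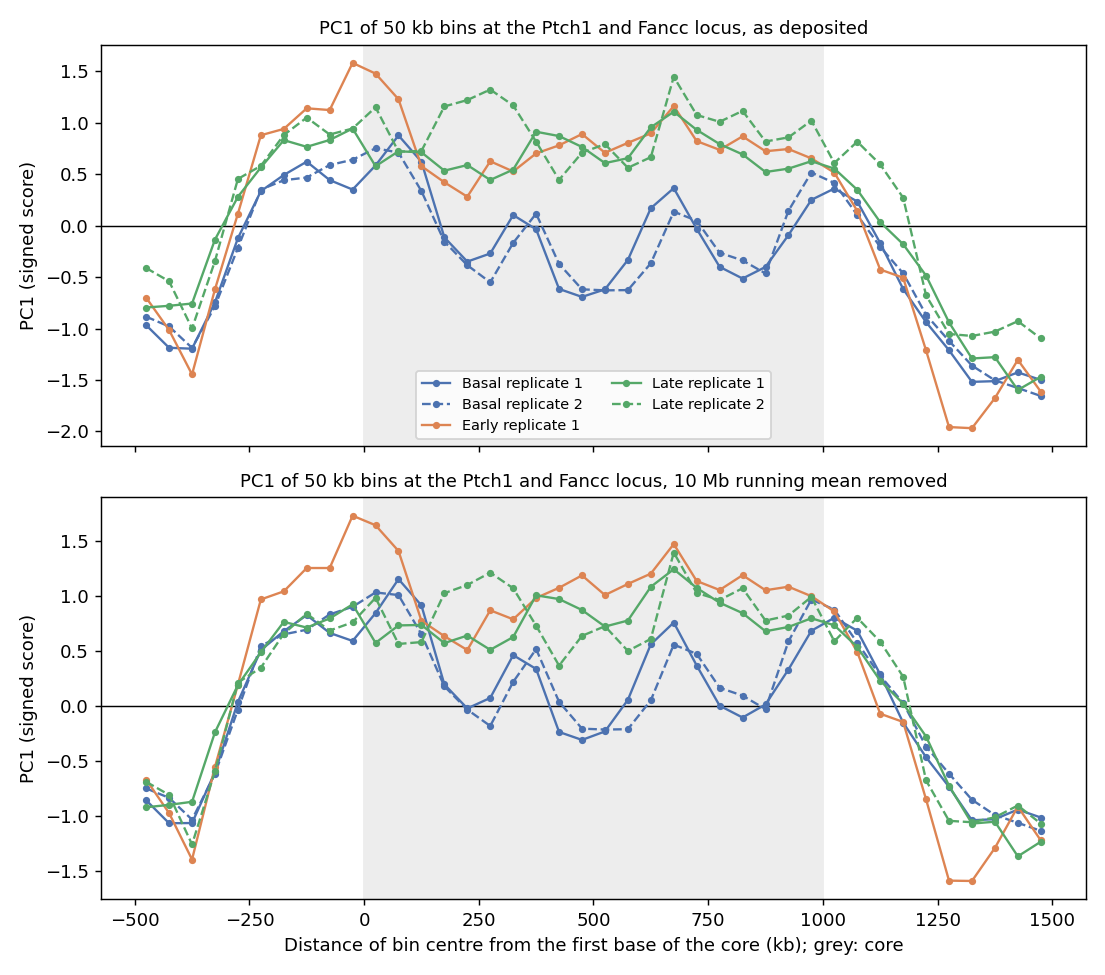
PC1 of each 50 kb bin (points) against the distance of its centre from the first base of the core in kb, for Basal (blue), Early (orange) and Late (green) libraries, replicate 2 dashed. The upper panel shows values as deposited and the lower panel the values with a 10 Mb running mean removed. In the upper panel both Basal libraries cross 0 repeatedly inside the grey core, while the Early and Late libraries stay above 0 throughout it.

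By sign, the libraries parted in the same way. In the core, 13 bins of Basal replicate 1 and 12 bins of Basal replicate 2 were negative, and none of the 20 bins was negative in Early or in either Late library. PC1 changed sign 6 times along the core in each Basal library and not at all in the other 3 libraries. For 10 of the 20 core bins, both Basal libraries were in B and the Early and both Late libraries were in A, against 2.03% of all bins. The choice of the locus favours such bins, so nothing is read from that contrast.

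Each Basal library had its B stretches in the middle of the core, between islands of A. In Basal replicate 1, A ran from 63050001 to 63450000, and after B it came back as islands of 50 kb at 63600001, of 100 kb at 63900001 and of 150 kb at 64250001. Basal replicate 2 had the same leading stretch of A, with islands of 50 kb at 63650001, of 100 kb at 63950001 and of 200 kb at 64200001. The starts of each pair of islands in the 2 replicates thus lay 50 kb apart, which is 1 bin. In Early these stretches were 1 unbroken A domain of 1400 kb, from 63000001 to 64400000, with a mean PC1 of 0.79. In Late replicate 1 the domain ran from 63000001 to 64450000 (1450 kb, mean 0.66), and in Late replicate 2 from 63000001 to 64500000 (1500 kb, mean 0.86).

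The outer borders of the A domain lay close together in all 5 libraries. Before the core, B ended at 63050000 in both Basal libraries and at 63000000 in the Early and both Late libraries, which is 1 bin apart. After the core, B began at 64400001 in both Basal libraries and in Early, at 64450001 in Late replicate 1 and at 64500001 in Late replicate 2. The libraries therefore differed in the inside of the domain more than in its extent. The bins share reads with their neighbours because each PC1 value comes from a 100 kb window, so a shift of 1 bin is at the limit of what the tables resolve.

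**Figure D2:**
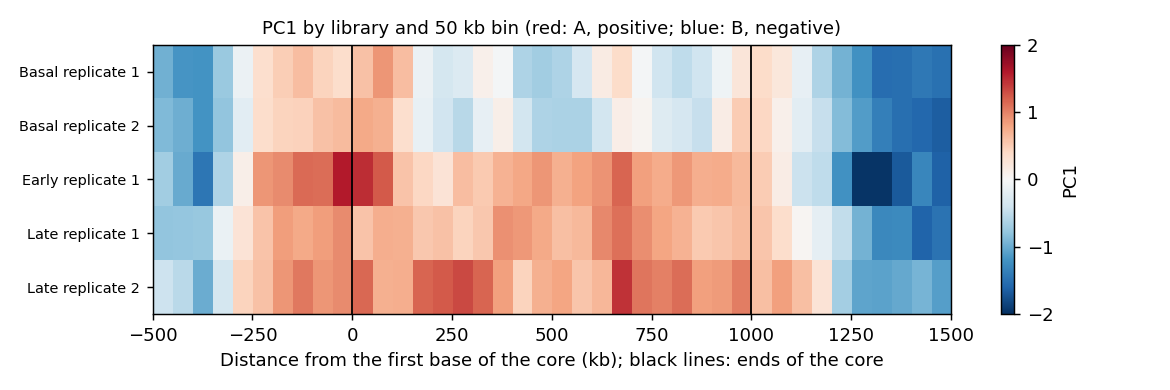
PC1 of every bin (columns, by distance from the first base of the core in kb) in each library (rows), red for positive values (A) and blue for negative values (B), with black lines at the ends of the core. The Basal rows hold blue bins between red islands inside the core, 13 and 12 of 20, and the Early and Late rows hold none.

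The largest difference from Basal lay in the bin from 63750001 to 63800000, for Late and for Early alike. PC1 there was -0.69 and -0.62 in the Basal libraries, 0.89 in the Early library, and 0.76 and 0.71 in the Late libraries. Basal was on the B side and the other 3 libraries were on the A side, with no overlap. Late minus Basal was 1.39 and Early minus Basal 1.55. Basal replicate 1 had its lowest core value in this bin, and Basal replicate 2 in the next, at 63800001, with -0.63.

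The approximate position given for the genes falls in the bin from 63600001 to 63650000, which need not hold either gene start. That bin had PC1 of 0.10 and -0.17 in Basal, 0.53 in the Early library, and 0.54 and 1.17 in Late. It was an island of A in Basal replicate 1 and the last bin of a B stretch in Basal replicate 2, and the Early and Late values were all above both Basal values. Late minus Basal was 0.89 and Early minus Basal 0.56. In the next bin, from 63650001 to 63700000, PC1 was -0.04 and 0.12 in Basal, 0.70 in the Early library, and 0.91 and 0.81 in Late. The bin before, from 63550001 to 63600000, was in B in both Basal libraries and had a Late minus Basal of 1.29 and an Early minus Basal of 1.04.

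One feature was common to every library. The bin from 63950001 to 64000000 had a higher PC1 than both of its neighbours in 5 of 5 libraries, at 0.36 and 0.14 in Basal, 1.16 in the Early library, and 1.11 and 1.44 in Late. It was the highest core bin in both Late libraries. The Basal libraries had their highest core values near the start of the core instead, 0.88 at 63350001 in replicate 1 and 0.75 at 63300001 in replicate 2, and Early had 1.48 at 63300001.

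In Late minus Basal, the start and end of the core did not follow its middle. For Early this did not hold at the first core bin. Early minus Basal was 0.81 at 63300001, 0.43 at 63350001, 0.10 at 63400001 and 0.27 at 64250001. Just outside the core, in the bin from 63250001 to 63300000, PC1 was 0.35 and 0.64 in Basal, 1.58 in the Early library, and 0.94 in each Late library. Just inside, from 63300001 to 63350000, it was 0.58 and 0.75 in Basal, 1.48 in the Early library, and 0.58 and 1.15 in Late, so that 1 Late library lay level with Basal. The bin from 63350001 to 63400000 was the only core bin with a lower mean in Late than in Basal: 0.72 in each Late library against 0.88 and 0.71 in Basal, values that overlap. At the other end, the last core bin, from 64250001 to 64300000, had 0.25 and 0.52 in Basal, 0.65 in the Early library, and 0.63 and 1.02 in Late. The bin just outside it had 0.36 and 0.41 in Basal, 0.51 in the Early library, and 0.55 and 0.61 in Late. Late minus Basal was 0.20, -0.07 and 0.24 in the first 3 core bins and 0.44 in the last one, all in A in both Basal libraries, against 0.68 to 1.39 in the 16 bins between them.

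Bin by bin, both Late libraries were above both Basal libraries in 18 of 20 core bins (30.1% of all bins), and Early was above both in 19 (44.1% of all bins). In limma, fitted over all 47652 bins with Benjamini-Hochberg adjustment at 0.05, Late was higher than Basal in 16 of 20 core bins, against 8.78% of all bins. These 16 bins were an unbroken run from 63450001 to 64250000, with a median difference of 1.09 and a range of 0.68 to 1.39. Early was higher than Basal in 14 core bins, against 9.97% of all bins, with a median difference of 1.05. The Early bins, unlike the Late ones, were not an unbroken run, and the bin from 63600001 to 63650000 was not among them. No core bin was lower in Late or in Early. With every sequence kept as deposited, chromosome 7 with its inverted sign included, limma called 0 core bins for Late and 5 for Early, and 16 and 15 had an unadjusted p under 0.05, with unchanged differences. These counts restate the contrast that chose the locus, and nothing is read from them. Late and Early are compared with the same Basal libraries, so their likeness in this respect is in part shared by construction.

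**Figure D3:**
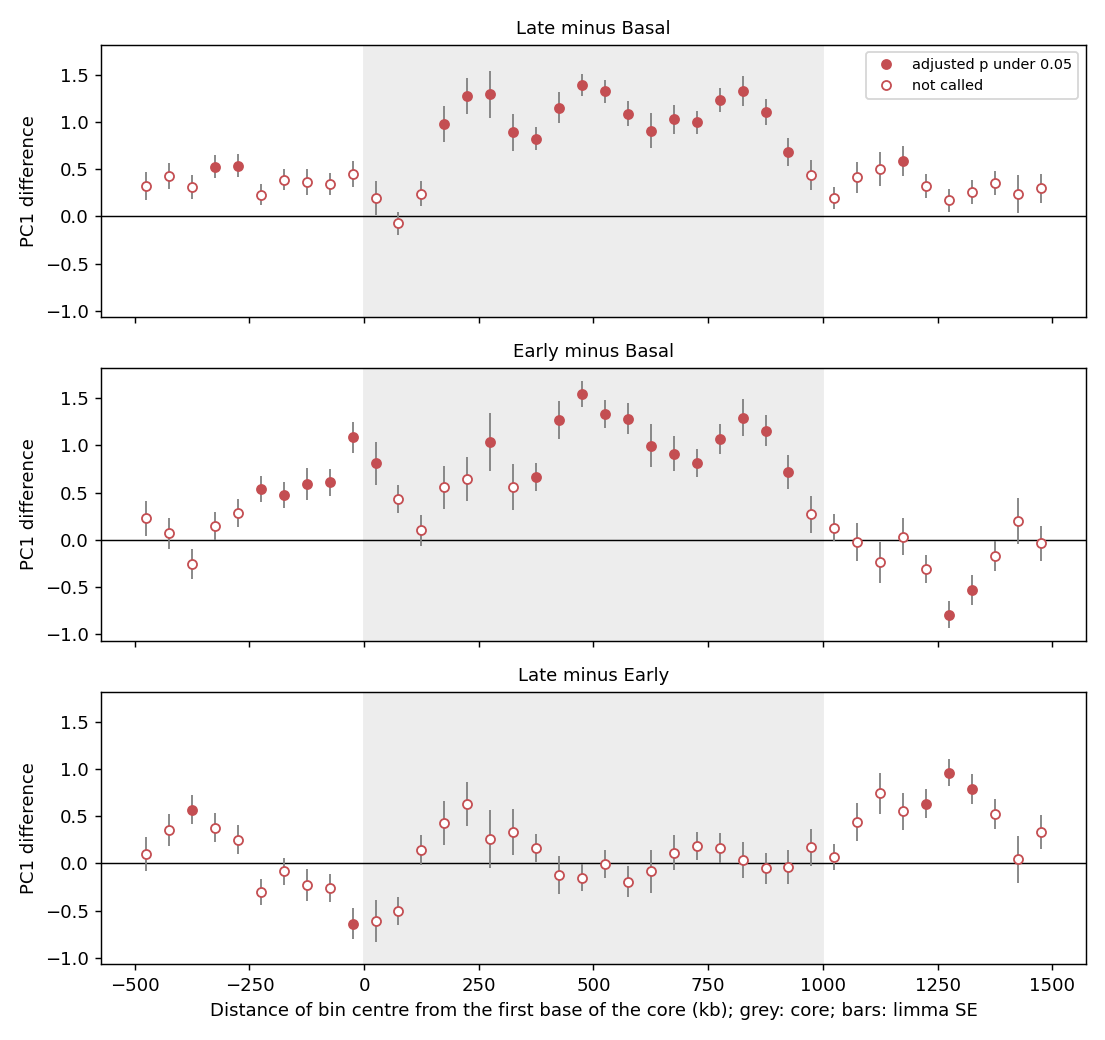
Difference in PC1 (vertical axis, with limma SE as bars) of each bin against its distance in kb from the first base of the core, for Late minus Basal, Early minus Basal and Late minus Early. Filled points passed an adjusted p of 0.05. In the core 16 and 14 points are filled in the upper panels and none in the lowest one.

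Replicates within the core were less alike in Late than in Basal. The absolute gap between the Late replicates had a median of 0.30 over the core bins, against 0.16 over all bins. That between the Basal replicates had a median of 0.17, against 0.10 over all bins. The widest Late gap, 0.88, lay in the bin from 63550001 to 63600000, at 0.44 in Late replicate 1 and 1.32 in Late replicate 2. Late replicate 2 was the higher of the pair in 14 of 20 core bins. Roughness over all bins, taken as the median absolute deviation of a bin from the average of its neighbours at a distance of 100 kb, was 0.13 in each Basal library, 0.19 in the Early one, 0.11 in Late replicate 1 and 0.18 in Late replicate 2. Its part in these gaps was not tested.

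The shape of the core was alike in the Basal replicates and not in the Late ones, and with 1 library it could not be compared within Early. Over its 20 bins, which overlap in reads, PC1 of the Basal replicates correlated with a Pearson r of 0.87 (Spearman's rho 0.83), and that of the Late replicates with -0.15 (rho -0.37). PC1 varied less across the core bins in Late (SD over bins 0.18 and 0.27) than in Basal (0.45 and 0.44). The part of this narrower range in the low r was not tested. Early correlated with the Late replicates at 0.36 and -0.06, and with the Basal replicates at 0.43 and 0.47. Over all 40 bins, where the steep borders dominate, r was 0.93 between the Late replicates, 0.95 and 0.92 between Early and Late, and 0.80 to 0.85 between Basal and either state. Both Late libraries were thus high across the core. In both, the bins at 63950001 and 64250001 stood above their neighbours, but the other local peaks of the core lay in different bins.

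The comparison of Late with Early asks whether the locus differed between those groups. Mean PC1 in the core was 0.70 and 0.94 in Late and 0.78 in Early, which lay between the Late libraries. The difference of 0.04 was smaller than the SD of 0.17 between the Late replicates. In limma no core bin passed in either direction, against 6.28% of all bins higher and 6.44% lower in Late; 3 of the 20 core bins had an unadjusted p under 0.05. Within the core, Late minus Early ran from -0.61 at 63300001 to 0.62 at 63500001, with 11 bins higher and 9 lower in Late. Without Late replicate 1 the difference in the core mean was 0.16, and without Late replicate 2 it was -0.08. A miss of the threshold with 1 Early library does not show that the states were alike.

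Late and Early differed in part of the flanks. In the flank after the core, mean PC1 was -0.63 and -0.36 in Late and -1.001 in Early, and all 10 bins were higher in Late. With a 10 Mb running mean removed, Late minus Early in this flank was 0.25 in place of 0.51, with 8 bins higher and 2 lower. In limma on the values as deposited, 3 of the 10 bins passed, against 6.28% of all bins. They lay together from 64500001 to 64650000, with differences of 0.63 to 0.96 (adjusted p from 0.0078 to 0.032). The bin from 64550001 to 64600000 had -0.94 and -1.05 in Late and -1.96 in Early. Early thus lay far below both Late libraries there. It also lay below Basal: the adjoining bins from 64550001 to 64650000 were lower in Early than in Basal by limma, 2 of 10 flank bins against 9.98% of all bins. In the flank before the core, 1 bin was higher in Late (0.57 at 62900001, adjusted p = 0.048) and 1 lower (-0.64 at 63250001, adjusted p = 0.039). PC1 at 63250001 was 0.94 in each Late library and 1.58 in Early, so Early was the higher there. These single bins of 10 are near the shares over all bins given above. With a 10 Mb running mean removed, 1 of the 3 bins after the core stayed higher in Late (64550001, against 3.65% of all bins) and 1 of the pair before it stayed lower (63250001, against 3.35%), and with every sequence kept as deposited limma called 0 bins in all for Late versus Early, with 12635 at an unadjusted p under 0.05.

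Early therefore had the steepest contrast between the core and its surroundings. The core mean less the mean of both flanks was 0.44 and 0.38 in Basal, 1.18 in the Early library, and 0.93 and 0.99 in Late. It was 0.96 ± 0.042 in Late, against 0.41 ± 0.041 in Basal (SD, n = 2 each). As deposited, the flanks themselves were higher in Late than in Basal. The flank before the core had 0.17 and 0.25 in Late, against -0.20 and -0.16 in Basal. The flank after it had -0.63 and -0.36 in Late, against -0.83 and -0.82 in Basal. In limma 2 of 10 bins of the flank before and 1 of 10 of the flank after were higher in Late than in Basal. Over all bins the share was 8.78%, so the count after the core is at the background. With a 10 Mb running mean removed, Late minus Basal was 0.05 in the flank before and -0.04 in the flank after, and no flank bin was called. In Early 5 of 10 bins of the flank before were higher than in Basal as deposited, against 9.97% of all bins. With the 10 Mb running mean removed, 1 of them stayed higher (63250001), against 6.02% of all bins. Early minus Basal in the flank before was then 0.28 in place of 0.38.

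**Figure D4:**
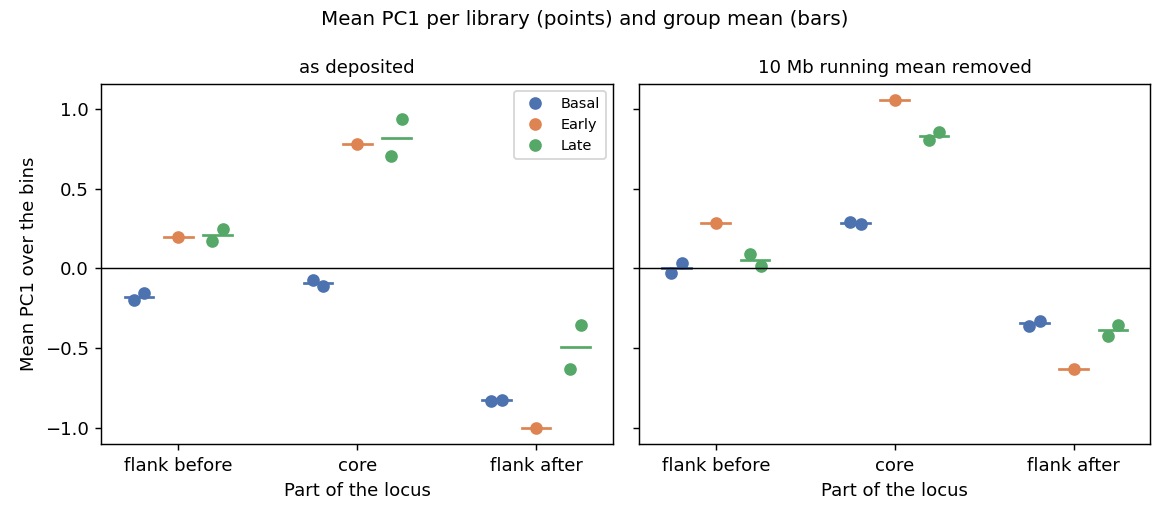
Mean PC1 over the bins of the flank before the core, the core and the flank after it, as points per library with bars at group means, for values as deposited (left) and with a 10 Mb running mean removed (right). In the core, Early and both Late libraries lie above both Basal libraries in each panel, and Early is level with Late as deposited but above both Late libraries with the running mean removed.

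Around the locus, both Late libraries lay above both Basal libraries, and Early lay between the Basal ones. Over the 133 bins within 5 Mb of the centre of the core, with the core and flanks left out, mean PC1 was -0.42 and -0.46 in Basal, -0.46 in the Early library, and -0.22 and -0.05 in Late. Late minus Basal was 0.30 there and Early minus Basal -0.01, a measure added after the other values were seen. The 10 Mb running mean under the core, which includes the locus itself, was -0.37 and -0.39 in Basal, -0.28 in the Early library, and -0.10 and 0.08 in Late. It was 0.37 higher in Late than in Basal and 0.10 higher in Early than in Basal. With it removed, the core mean was 0.29 and 0.28 in Basal, 1.06 in the Early library, and 0.80 and 0.86 in Late. Basal thus already stood above its surroundings, and Early and Late stood higher. Late minus Basal was then 0.54 and Early minus Basal 0.77, while over the rest of chromosome 13 (2267 bins) the corresponding means were -0.0049 and -0.0080. The core means of the Late replicates then had an SD of 0.036 in place of 0.17.

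The order of Early and Late turned with the 10 Mb step but not with a 20 Mb one, under which Late minus Early was 0.0875 and limma called 0 core bins, with 4 at an unadjusted p under 0.05. With the 10 Mb running mean removed, Early lay above both Late libraries in the core, and Late minus Early was -0.23 in place of 0.04. In limma on these values, 2 core bins were lower in Late than in Early, against 3.35% of all bins, adjoining each other from 63300001 to 63400000 with differences of -0.87 and -0.76 (adjusted p = 0.036 and 0.028). Late was higher than Basal in 12 core bins (6.34% of all bins) and Early was higher than Basal in 12 (6.02% of all bins). The bin from 63600001 to 63650000 was in neither list, with differences of 0.51 for Late and 0.45 for Early. The largest differences from Basal stayed in the bin from 63750001 to 63800000, at 1.01 for Late and 1.44 for Early.

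Other places in the autosomes had a like pattern over the 5 libraries. The chromosomes were divided into 2167 consecutive windows of 20 bins outside the locus, and likeness was the Euclidean distance between mean PC1 values over the 5 libraries, with a median of 2.17. The nearest window lay on chromosome 5 from 64700001 to 65700000 (distance 0.27), with 0.05 and 0.10 in Basal, 0.75 in the Early library, and 0.72 and 0.83 in Late. The next were on chromosome 15 from 59000001 to 60000000 (0.33), chromosome 16 from 77250001 to 78250000 (0.35), chromosome 12 from 54700001 to 55700000 (0.41) and chromosome 5 from 76700001 to 77700000 (0.42). All 5 windows were at or just above 0 in Basal, and their Late minus Basal differences ran from 0.54 to 0.74, against 0.91 in the core. They were found by their likeness to the core and are not a separate finding.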

How the data were processed

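The authors deposited 1 table per library with PC1 as a signed score per 50 kb bin, made with HOMER on mm9, per the submitters' processing notes. The sources used here give no aligner, versions, read filters or way of setting the sign. Without read counts in the tables, the depth behind each value is unknown and no counting interval is given. Libraries were grouped by their titles. The 5 tables list 51811 different bins, and 50542 of them have a value in every table. Chromosomes on which any pair of libraries correlated below an r of 0.5 were left out, which removed chromosome 7 (lowest r -0.976, its sign being inverted between libraries), and chromosome Y and unplaced sequence were not used. This left 47652 bins on 18 autosomes and X.

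PC1 was compared across all bins with limma 3.58.1 in R 4.3.3, in a single model of the 5 libraries, by 2-sided tests adjusted after Benjamini-Hochberg at 0.05. Residual degrees of freedom numbered 2, with a prior of 6.60, and Early is assumed to vary like Basal and Late. The fit was checked on simulated data with known differences. The labels describe biological replicates but do not tie a library to its animals, so p-values measure only the spread between libraries, and neighbouring bins are not independent. The running mean used a centred window of 10 Mb per library and chromosome, shortened at chromosome ends. Coordinates are 1-based. Members, lists and tests were chosen with earlier results of these data known. Bins were named as the highest and lowest per library, those at sign changes and those at the ends of the core; the bin at 63750001 (largest difference), the bin at 63550001 (widest gap), the bin at 63950001 and the flank bins were named after their values were seen, and genes were named by their order around Fancc and Ptch1. Other Hedgehog and Fanconi genes are not reported, because no mm9 annotation was used here. Python 3.11.15, numpy 2.4.6 and pandas 2.3.3 were used for the rest. The closing section gives the alternatives: a running mean of 20 Mb, quantile normalization, other sets of bins, a replicate block and leaving out each library.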

Additional observations from a re-analysis of the deposited data

How the results depend on the processing

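Late and Early stayed above Basal in the core mean under every alternative run. Late minus Basal was 0.54 with a 10 Mb and 0.71 with a 20 Mb running mean removed, and 0.80 to 1.03 with each library left out. Early minus Basal was 0.62 with the 20 Mb running mean removed, and 0.86 to 0.89 with each library left out. Late minus Early had no stable sign: 0.0875 with the 20 Mb and -0.23 with the 10 Mb running mean removed, -0.0044 with quantile normalization and -0.08 to 0.16 with each library left out. With all sequences kept as deposited, the locus held 0 called bins for Late versus Basal and 5 for Early versus Basal, with unchanged differences, and limma called 0, 2084 and 0 bins in all for Late versus Basal, Early versus Basal and Late versus Early, with 13365, 14811 and 12635 at an unadjusted p under 0.05. That setting adds chromosome 7, whose sign is inverted between libraries, and sequences outside the assembled autosomes and X. By construction it leaves each core value as it was and changes the pooled variance and the number of tests. Keeping every second bin left 8 of 10 and 7 of 10 core bins called for Late and Early versus Basal, and 3999, 4831 and 3204 bins in all, as fewer bins were tested. The 20 Mb running mean left 9 core bins for Early versus Basal, and the 10 Mb one left 5588 bins in all for Early versus Basal, and 3335 when Late was set against Early; the cause was not tested. For Late versus Early, where the core had 0 called bins, there were 2 with the 10 Mb running mean removed. There was 1 each with quantile normalization, with autosomes only and with the replicate block. All of these were lower in Late. Over all bins, these settings called 3335, 5322, 6503 (of 44650) and 5818, higher and lower in Late together. Nothing is read from the core counts. Leaving out each library gave 14 to 18 core bins for Late versus Basal, 11 to 18 for Early versus Basal, and 0 to 5 when Late was set against Early (5 without Late replicate 1, 2 without Late replicate 2). In all it gave 2641 (without Basal replicate 1) to 14390 (without Late replicate 1), 4248 (without Basal replicate 1) to 17853 (without either Late library), and 3799 (without either Basal library) to 12608 bins (without Late replicate 2). Where this leaves a group with 1 library, that library is assumed to vary like the others.

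Replicates of Basal and Late share numbers, and the labels do not say whether equal numbers pair the libraries. The gap between the Basal replicates and that between the Late replicates correlated with r = 0.01 over bins. This cannot settle the question, because a pairing need not shift every bin alike. With the replicate block, 17, 16 and 1 core bins were called for Late versus Basal, Early versus Basal and Late versus Early. Over all 47652 bins, 8752, 9585 and 5818 were called. The depth is not recorded in the tables, so it cannot be set against the differences between the replicates.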
